A study of Drosophila melanogaster with 3 samples.

Results

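The genes described here encode the protein subunits of the mitochondrial ribosome of Drosophila melanogaster. They were taken from the Ensembl annotation as every gene whose symbol is mRpL or mRpS followed by a number, which gave 73 of 18164 annotated genes: 47 of the large subunit and 26 of the small subunit. All 73 were annotated as protein-coding, and RefSeq describes all 73 as mitochondrial ribosomal proteins. The study measured where on the genome the product of CG17361, made as a fusion with enhanced green fluorescent protein (eGFP), lay in chromatin. Chromatin immunoprecipitation with an antibody against GFP was followed by sequencing (ChIP-seq) in whole transgenic embryos aged 0 to 24 h. The 3 libraries are replicates of this CG17361-eGFP group, with no second genotype or treatment. Members are therefore compared here with other genes of the same embryos. The sequence that drives the fusion gene and the number of embryos per library are not given in the labels. Whole embryos of mixed ages hold many cell types, and the peak lists do not tell in which cells the protein was bound.

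Mitochondria carry a small genome of their own and translate its messages, which code for subunits of the respiratory chain, on a dedicated ribosome. Its RNAs come from the mitochondrial genome, but its proteins are encoded in the nucleus, made in the cytosol and imported. Some of these proteins have bacterial counterparts and keep the bacterial number, while others are found in mitochondrial ribosomes alone. Complete particles need all of these proteins together with the mitochondrial RNAs, so their nuclear genes are studied as a group with coordinated expression.

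A gene was called promoter-bound when the summit of a peak lay within 500 bp of one of its transcription start sites (TSSs). The peak lists hold peaks that passed the authors' irreproducible discovery rate (IDR), a measure of how consistently a peak is ranked in a pair of lists, at 0.01 or less. The main list is the conservative series-level list, for which the IDR compared ranks that match replicates 1 and 3. Its intervals and signals, like those of all series-level lists, were made from the alignments of all 3 replicates together. Each replicate also has a list of its own. Each peak has a signal, a score given by the authors on a scale that is not stated, and signals are compared only within a list. The lists held 7804 peaks in the conservative set, 5942 in replicate 1, 3797 in replicate 2 and 5576 in replicate 3. No read counts accompany them, so the sequencing depth behind each list is unknown. Whether the replicates came from separate embryo collections is not stated, so the spread between them may be partly technical.

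The strongest peaks at these genes lay over sequence rich in A and T. To show this, the summit base and 50 bases to either side are given for 7 of the strongest peaks of the conservative list, from the RefSeq release 6 genome (dm6 coordinates, read 5′ to 3′ on the strand of the named gene). Capitals mark the longest uninterrupted run of A and T. The windows are chr3R:15229477-15229577 (plus strand) for mRpS10, chr2L:13835416-13835516 (minus) for mRpS23, chr2L:4850518-4850618 (minus) for mRpS2 and chr3L:13018076-13018176 (minus) for mRpL20. For mRpL24 the window is chr2L:4945414-4945514 (minus), for mRpS7 chr2L:10386404-10386504 (plus) and for mRpS22 chr3R:27916607-27916707 (plus).
mRpS10: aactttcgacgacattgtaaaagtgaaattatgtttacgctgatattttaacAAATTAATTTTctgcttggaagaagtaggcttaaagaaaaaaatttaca
mRpS23: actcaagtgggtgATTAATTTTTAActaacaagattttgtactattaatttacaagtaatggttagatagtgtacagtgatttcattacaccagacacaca
mRpS2: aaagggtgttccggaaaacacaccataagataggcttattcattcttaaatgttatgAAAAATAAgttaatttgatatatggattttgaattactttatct
mRpL20: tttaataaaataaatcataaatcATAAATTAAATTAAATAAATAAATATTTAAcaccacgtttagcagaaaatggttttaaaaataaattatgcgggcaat
mRpL24: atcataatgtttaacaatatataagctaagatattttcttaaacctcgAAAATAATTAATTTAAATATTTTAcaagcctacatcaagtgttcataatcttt
mRpS7: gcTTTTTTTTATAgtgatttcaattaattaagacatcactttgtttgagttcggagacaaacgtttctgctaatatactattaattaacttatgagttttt
mRpS22: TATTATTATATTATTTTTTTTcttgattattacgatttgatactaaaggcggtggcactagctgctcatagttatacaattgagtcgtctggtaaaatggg

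In these 7 windows A and T made up from 68.3% of the bases at mRpS22 to 82.2% at mRpL20, and the longest uninterrupted run was the 30 bases at mRpL20. The peaks at mRpL41, mRpL23, mRpL37 and mRpS29 were stronger than that at mRpS22 but are not shown. In windows of the same size these peaks had 22.8%, 23.8%, 23.8% and 30.7% G and C. All 7 summits lay in intergenic sequence upstream of the named gene. For contrast, 4 of the 5 bound genes with the lowest signal are shown in the same way: chr3R:19094919-19095019 (minus strand) at mRpL55, chrX:4322389-4322489 (minus) at mRpL33, chr3L:7244087-7244187 (minus) at mRpL50 and chrX:16783619-16783719 (plus) at mRpL22.
mRpL55: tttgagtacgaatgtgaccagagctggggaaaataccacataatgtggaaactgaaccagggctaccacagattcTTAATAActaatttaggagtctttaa
mRpL33: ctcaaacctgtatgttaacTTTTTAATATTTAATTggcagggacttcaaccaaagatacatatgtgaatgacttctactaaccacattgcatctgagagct
mRpL50: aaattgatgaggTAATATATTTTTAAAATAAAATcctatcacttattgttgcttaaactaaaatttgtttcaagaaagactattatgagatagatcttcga
mRpL22: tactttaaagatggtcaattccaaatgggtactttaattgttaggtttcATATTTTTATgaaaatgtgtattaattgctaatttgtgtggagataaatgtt

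These weak-signal windows ranged from 61.4% A and T at mRpL55 to 77.2% at mRpL50, so the base composition of both sets overlapped.

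In the conservative list 38 of the 73 genes were promoter-bound, which is 52.1% (95% Wilson interval 40.8 to 63.1%, counting error only). Of all annotated genes 22.3% were called by the same rule, and of the other protein-coding genes 26.3%. In the replicates' own lists 32, 21 and 33 of the 73 genes were bound in replicates 1, 2 and 3, against a background over all genes of 19.3%, 13.4% and 18.3%. The bound share of the mitochondrial ribosomal protein genes was higher than that of all other genes in each of the 3 replicates, by 24.6, 15.4 and 27.0 percentage points. It averaged 39.3% ± 9.12 for the mitochondrial ribosomal protein genes and 17.0% ± 3.13 for all other genes (SD, n = 3 replicates), a mean difference of 22.3 ± 6.12 percentage points. The exact sign-flip permutation test over the 3 replicates gave p = 0.25 (two-sided; 0.25 after Benjamini-Hochberg adjustment over the 4 tests made), which is the smallest p this test can give with 3 replicates, so it cannot pass a threshold of 0.05 here. Against other protein-coding genes alone the mean difference was 18.9 percentage points, and it was 7.43 when these were also weighted to the same distances from a neighbouring TSS, as described further on.

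**Figure D1:**
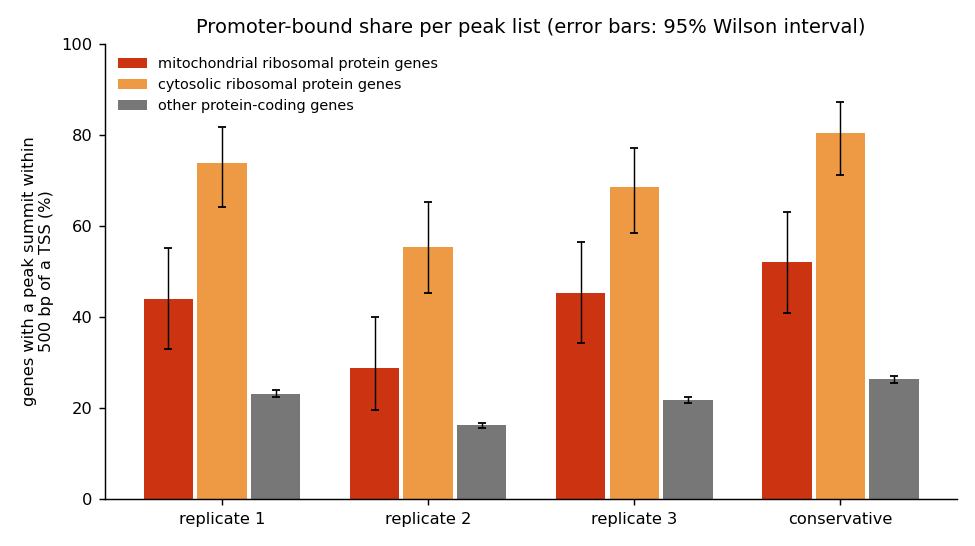
The share of genes with a peak summit within 500 bp of a TSS is plotted in percent for each peak list, with 95% Wilson intervals as error bars. In all 4 lists the mitochondrial ribosomal protein genes sit between the cytosolic ribosomal protein genes and the other protein-coding genes; in the conservative list the shares are 52.1%, 80.4% and 26.3%.

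The genes for the cytosolic ribosome, which translates nuclear messages, are the closest comparable set. Of these 92 genes 74 were bound in the conservative list, or 80.4%. The median summit position was -150.5 bp (negative is upstream) for the mitochondrial ribosomal protein genes and -76 bp, closer to the TSS, for the cytosolic ones.

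Large subunit genes were bound in 24 of 47 cases (51.1%) and small subunit genes in 14 of 26 (53.8%). Over the replicates the large subunit share averaged 35.5% ± 12.5 and the small subunit share 46.2% ± 3.85 (SD, n = 3). The large minus small subunit difference was -9.57, -21.0 and -1.47 percentage points in replicates 1, 2 and 3, and the exact sign-flip permutation test gave p = 0.25, the smallest it can give. With a limit of 250 bp in place of 500 bp the mean difference was -4.12 and p = 0.75 in the same exact test. Taking the strongest peak of each bound gene, the median signal in the conservative list was 251 for the large subunit and 408 for the small subunit. On the same measure it was 275 for the 3649 other bound protein-coding genes, between these values. Over all promoter peaks of that list, strongest or not, the median was 226. In the replicates' own lists the order of the subunits did not hold throughout: the medians of the large and small subunit genes were 121 and 148 in replicate 1, 138 and 107 in replicate 2, and 117 and 159 in replicate 3.

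Among the small subunit genes, mRpS10 had the strongest peak. Its product is a protein of the small subunit head. The peak at mRpS10 (chr3R:15229257-15229820, FBgn0038307) had a signal of 1182 in the conservative list, the third highest of all peaks there and the highest at any gene described here. In the replicates' own lists it reached 406, 369 and 403 in replicates 1, 2 and 3. Its summit lay 138 bp upstream of the mRpS10 TSS and between that TSS and the one of Art3, an arginine methyltransferase gene on the opposite strand.

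The peak at mRpS23 (chr2L:13835159-13835716), which encodes a subunit without a bacterial counterpart, had a signal of 897 in the conservative list. Its signals were 316, 271 and 329.9 in replicates 1, 2 and 3. Its summit, 394 bp upstream of mRpS23, was the farthest from its gene among all 38, and lay 98 bp from the TSS of CenG1A, which encodes a GTPase-activating protein. The peak at mRpS2 had a signal of 778 in the conservative list and of 267, 217 and 299 in replicates 1, 2 and 3. The product of mRpS2 belongs to a protein family found in all ribosomes. Its summit lay 149 bp upstream of mRpS2 and 73 bp from the TSS of Mon1, a gene of late endosome maturation.

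The peak at mRpS7, whose bacterial counterpart binds the head domain of the small subunit RNA, had a signal of 531 in the conservative list. Its signals in replicates 1, 2 and 3 were 211, 125 and 186. This summit lay 208 bp upstream of mRpS7 and 192 bp from the TSS of Cdk1, the mitotic kinase. At mRpS29, whose mammalian counterpart is the GTP-binding protein DAP3, the conservative signal was 465 and the replicates' signals were 208, 96.0 and 171. The mRpS29 summit was 328 bp upstream and also lay within 500 bp of a TSS of rad50, a DNA repair gene that starts more than 500 bp from mRpS29. Of these 5 small subunit genes, mRpS10 was the highest in the conservative list and in each replicate's list.

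Among the large subunit genes, mRpL41 came first. Its product is a large subunit protein without a bacterial counterpart. The peak at mRpL41 (FBgn0034001) had a signal of 1112 in the conservative list and of 385, 349.6 and 402 in replicates 1, 2 and 3. Its summit lay 147 bp upstream of mRpL41, and the only other gene with a TSS within 500 bp of it was the long noncoding RNA gene lncRNA:CR44463. The peak at mRpL41 ranked 14th in the conservative list, 29th in replicate 1, 6th in replicate 2 and 19th in replicate 3.

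The product of mRpL23 sits at the exit of the tunnel through which the growing protein leaves the ribosome. Its peak had a signal of 889 in the conservative list, and 313, 276 and 297 in replicates 1, 2 and 3. The mRpL23 summit (chr3L:2373358-2373852 is the peak) was the exception in position among the strong peaks, 49 bp downstream of a TSS of mRpL23 and inside its 5′ UTR, next to CG9004. At mRpL20, the counterpart of a bacterial protein needed early in assembly, the conservative signal was 775 and the replicates' signals were 276, 212 and 293. The mRpL20 summit lay 259 bp upstream, nearer to Icmt, a methyltransferase gene, at 140 bp. At mRpL24, whose bacterial counterpart starts large subunit assembly, the conservative signal was 774 and the replicates' were 272, 227 and 271. The mRpL24 summit lay 103 bp upstream and 115 bp from betaggt-I, a subunit gene of a protein prenyltransferase.

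A gap in signal followed these genes. In each replicate's own list the same 7 genes, mRpS10, mRpL41, mRpS23, mRpL23, mRpS2, mRpL20 and mRpL24, had the 7 highest signals of the set. They were at or above 267 in replicate 1, where mRpS7 followed with 211. In replicate 2 they were at or above 212 and mRpL37 followed with 161, and in replicate 3 they were at or above 271 and mRpS7 followed with 186. By their strongest peaks, these 7 genes were the ones above the 90th percentile of all promoter peak signals in the conservative list. They made up 18.4% of the 38, a share that was not counted for other bound genes. The conservative signals were made from the alignments of the same 3 replicates.

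The next large subunit peaks had lower conservative signals, at percentiles 86.1 (mRpL37), 81.5 (mRpL34) and 80.3 (mRpL39) of the promoter peaks. At mRpL37, whose product has no bacterial counterpart, the conservative signal was 518, with 198, 161 and 151 in replicates 1, 2 and 3. The mRpL37 summit lay 164 bp upstream. At mRpL34, named for a small bacterial protein of the large subunit, the conservative signal was 446, with 181, 112 and 166 in the replicates, and its summit lay 142 bp upstream, between mRpL34 and Dg, the dystroglycan gene. At mRpL39 the conservative signal was 434, with 168, 100.9 and 165 in the replicates, and its summit lay 95 bp upstream, between mRpL39 and Prosbeta2, a proteasome subunit gene. Within each replicate's list these 3 genes stayed below the 7 strongest.

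**Figure D2:**
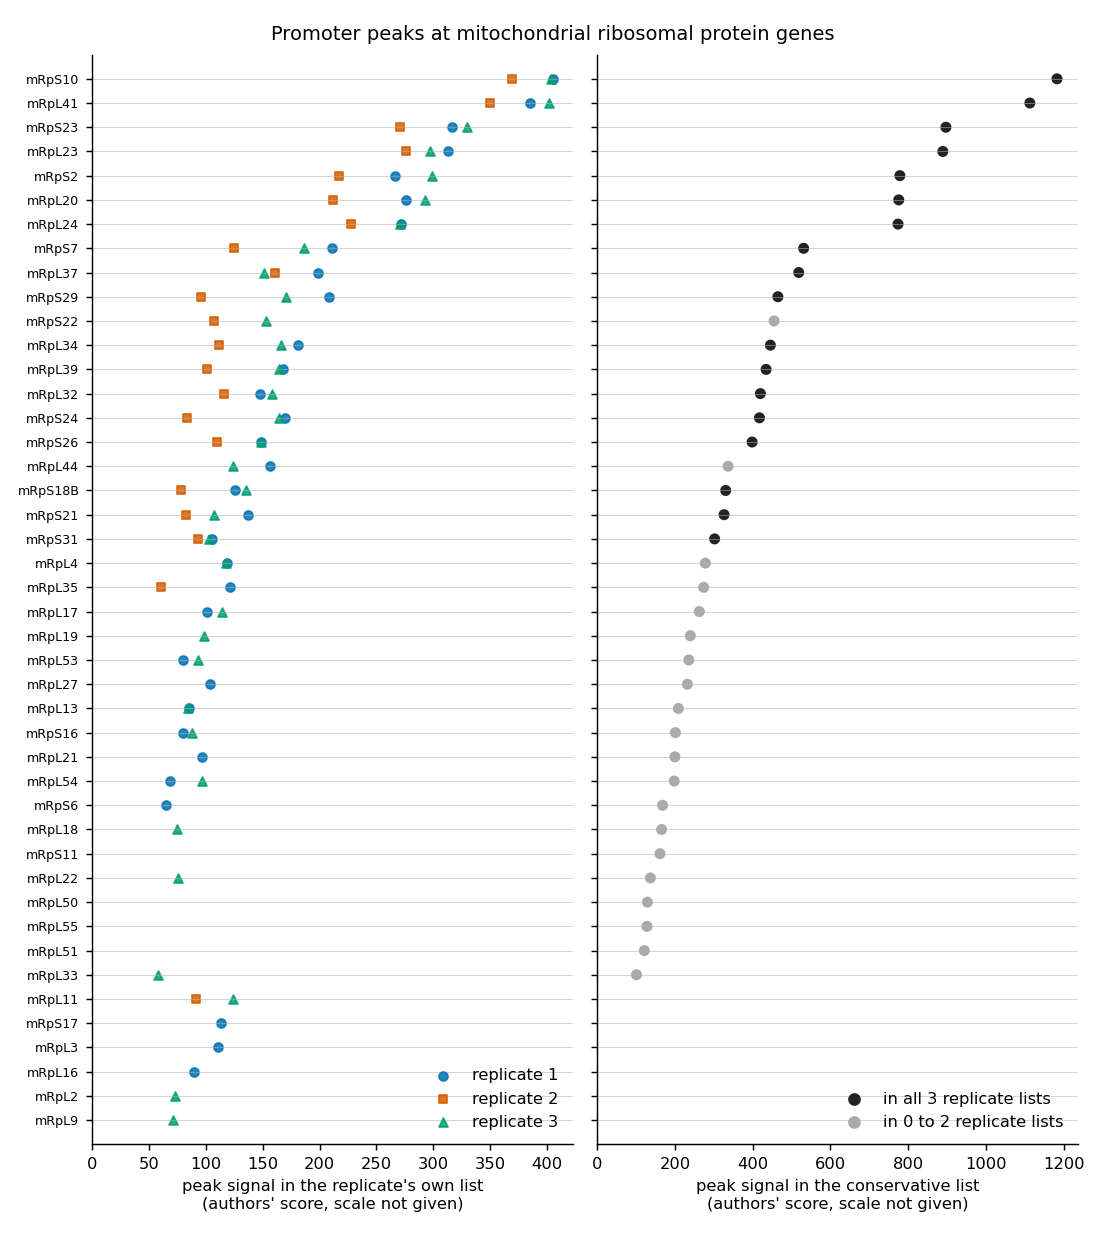
Each row is a gene with a promoter peak in at least 1 list; the left panel plots its signal in the 3 replicates' own lists and the right panel its signal in the conservative list, both on the authors' score. The 18 genes in all 3 replicate lists span 302 to 1182 on the right, and the 7 strongest stand apart in both panels.

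Across all 38 bound genes the conservative signal ran from 102 at mRpL33 to 1182 at mRpS10, with a median of 314. For the strongest peak of each of the 3649 other bound protein-coding genes the median was 275. By rank, 12 of the 38 lay in the lower part of the promoter peaks, below their median. In the replicates, counting every promoter peak of these genes and not just the strongest, the median percentile among the promoter peaks of the same list was 54.6, 59.6 and 56.9 in replicates 1, 2 and 3, a mean of 57.0 ± 2.50 (SD, n = 3) where 50 is the middle. For the strongest peak of each gene it was 66.3, 61.0 and 63.0. The exact sign-flip permutation test of the difference of 7.01 from 50 gave p = 0.25, the smallest it can give. Keeping only peaks with an IDR of 0.001 or less turned this difference to -1.83. Signals of the same gene in a pair of replicates followed each other closely, with a Spearman rho of 0.911 over 19 genes for replicates 1 and 2, 0.967 over 25 for replicates 1 and 3, and 0.845 over 20 for replicates 2 and 3. These correlations run across genes, which are not independent samples, and describe the lists without a test.

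Of the 38 genes, 18 were bound in all 3 replicates' own lists, 9 in 2 of them, 7 in 1 and 4 in none. Of the 4055 annotated genes bound in the conservative list, 1944 were bound in all 3 replicate lists, a share close to that of 18 in 38. Counted over all genes, bound or not, it was 18 of the 73 and 1977 of all annotated genes (10.9%). The 18 genes comprise the 12 described above and mRpL32, mRpS24, mRpS26, mRpS18B, mRpS21 and mRpS31, whose conservative signals ran from 419.9 at mRpL32 to 302 at mRpS31. The strongest gene outside the 18 was mRpS22, at 455 in the conservative list. It had 107 in replicate 2 and 153 in replicate 3, and no promoter peak in the replicate 1 list. Requiring a peak in the conservative list and all 3 replicate lists thus gives 18 genes in place of 38, and the list that compares replicates 2 and 3 gives 25.

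By width, the peaks of the conservative list fell into 2 groups. At 17 of the 38 genes the strongest peak was exactly 610 bp wide with its summit at the centre, and at 21 it had another width, from 165 to 617 bp. Signals were 102 to 274 for the 610 bp peaks and 278 to 1182 for the others, without overlap. All 18 genes bound in every replicate were among the 21, and none among the 17. Of all 7804 peaks in the conservative list, 52.3% had the 610 bp width. The replicates' lists repeated widths of their own, such as 624 bp in replicate 1 and 670 bp in replicate 3. A gene could change group between lists. The peak at mRpL32 was 339 bp wide in the conservative list and 624, 166 and 670 bp in replicates 1, 2 and 3. The width group is therefore that of a peak in a list and not a fixed trait of a gene.

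The 5 genes with the lowest conservative signal were mRpL33 at 102, mRpL51 at 122, mRpL55 at 128, mRpL50 at 129.6 and mRpL22 at 137. All encode large subunit proteins, and all 5 peaks had the 610 bp width. In the replicate lists mRpL33 reached 58.1 and mRpL22 75.3, both in replicate 3 alone, while mRpL51, mRpL55 and mRpL50 were in none. The remaining gene bound in the conservative list and in no replicate list was mRpS11, a protein of the small subunit platform, at 162. These 4 genes, mRpL50, mRpL51, mRpL55 and mRpS11, passed the threshold in the series-level list and in no replicate's own list. How many of all genes did so was not counted.

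In the other direction, 6 genes were bound in a replicate list and not in the conservative list, a count not made over all genes. The highest was mRpL11, whose bacterial counterpart forms the base of the stalk that receives translation factors, with 91.0 in replicate 2 and 124 in replicate 3 and no peak in replicate 1. The other 5 appeared in 1 replicate each. In replicate 1, mRpS17 had a signal of 113, mRpL3 of 110.4 and mRpL16 of 89.2. In replicate 3, mRpL2 had 72.9 and mRpL9 had 71.0. In bacteria L2, L3 and L16 lie around the peptidyl transferase centre.

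Ranked lists also hold peaks that fail the IDR, and 4 were searched, those of the conservative list and of each replicate. Of the 35 genes not bound in the conservative list, 10 had no line within 500 bp of a TSS in any of these. These 10 were mRpL38, mRpL40, mRpL43, mRpL45, mRpL46, mRpS14, mRpS25, mRpS34, mRpS35 and mRpS9. A further 19 were in no thresholded list but in at least 1 of these ranked lists. Neither count was made over all genes, so how usual they are is not known. Among the 19 was mRpL47. Its promoter had a conservative ranked line with a signal of 165 and an IDR of 0.0013. A replicate 3 line there had a signal of 72.5 and an IDR of 0.0054. Both pass the IDR threshold but are absent from the thresholded lists. In the conservative list 170 of 8685 such lines (1.96%) are absent, 117 of them on arm 3R, and the reason is not given in the sources used here. Counting ranked lines at the same IDR would make 39 genes bound. Values for mRpL47 were picked out after they were seen.

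Near the 500 bp limit, the bound genes whose nearest summit was farthest away were mRpS23 at 394 bp, mRpS29 at 328 bp and mRpL22 at 264 bp. The genes just outside the limit were mRpS25 at 509 bp, mRpS5 at 1043 bp and mRpL2 at 1430 bp. With a limit of 1000 bp 39 genes were bound, and with 250 bp 34.

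Of the 38 summits, 36 lay upstream of the gene's TSS (94.7%), at a median position of -150.5 bp. Among 3649 other bound protein-coding genes 87.9% were upstream, at a median of -158 bp. The window from 50 to 300 bp upstream held 30 of the 38 (78.9%) and 64.1% of the other genes' summits. By annotation, 31 summits were intergenic, 6 lay in a 5′ UTR and 1 in an intron, that of AGO1 at mRpL53. Both downstream summits were at large subunit genes, mRpL23 at 49 bp and mRpL54 at 9 bp. For the 18 genes in all 3 replicates the summits of the replicates lay a median of 33.5 bp apart from end to end, from 2 to 79 bp.

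**Figure D3:**
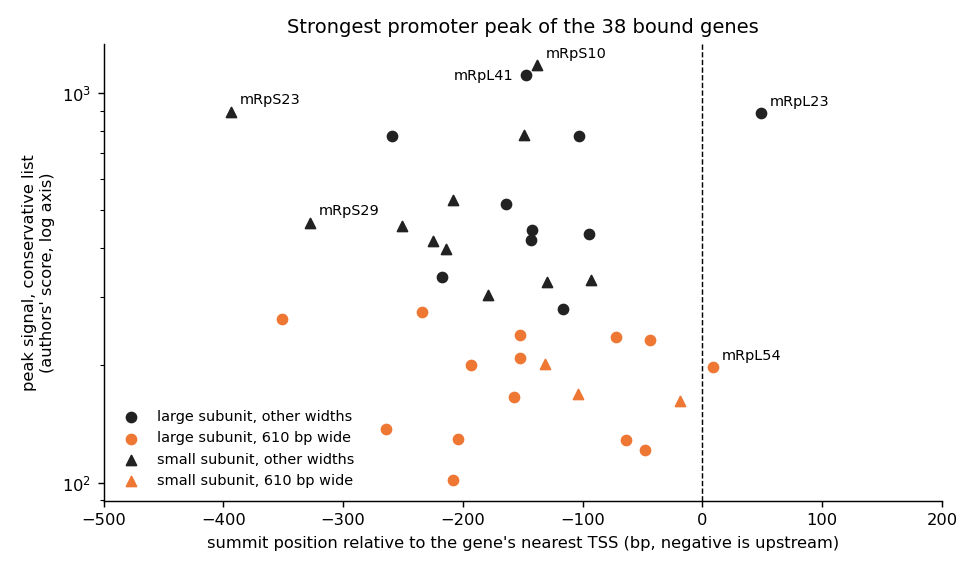
Signal in the conservative list (log axis) is plotted against the distance of the summit from the gene's nearest TSS in bp, negative upstream, for the 38 bound genes, with shapes for the subunit and colours for the peak width. All but mRpL23 at 49 bp and mRpL54 at 9 bp lie upstream, and the 610 bp peaks all lie below 278.

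Most of these genes stand close to a neighbour. A TSS of another protein-coding gene lay within 500 bp for 54 of the 73 genes (74.0%), against 30.7% of the 13872 other protein-coding genes. The nearest such neighbour was on the opposite strand for 52 of the 54. Of the 54 genes with such a shared promoter 34 were bound (63.0%), and of the 19 without 4 were bound (21.1%): mRpL41, mRpS29, mRpL4 and mRpL19. Over the replicates the bound share averaged 46.3% ± 9.62 with a shared promoter and 19.3% ± 8.04 without (SD, n = 3). The difference was 30.8, 24.7 and 25.5 percentage points in replicates 1, 2 and 3, a mean of 27.0 ± 3.32, and the exact sign-flip permutation test gave p = 0.25, the smallest it can give. Other protein-coding genes were bound in 45.4% of cases with such a neighbour and in 17.9% without.

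A peak between a pair of divergent TSSs cannot be assigned to either gene from these data. The strongest peak of 36 of the 38 bound genes lay within 500 bp of a TSS of another gene, and for 35 that gene was protein-coding. This was not counted for other bound genes. By distance between TSSs, 34 of the 38 had a protein-coding neighbour within 500 bp, and so had 1932 of the 3649 other bound protein-coding genes. Of the 34 bound genes with a shared promoter 32 had their nearest protein-coding neighbour on the opposite strand. In 26 of these 32 the summit lay between the TSSs. Among the 32 it was nearer to the neighbour in 19 cases and nearer to the mitochondrial ribosomal protein gene in 13. Neither count was made for other pairs of divergent genes. The neighbours had varied functions: Cdk1 in mitosis, Prosbeta2 in protein breakdown, Snr1 and rept in chromatin remodelling, Apc2 in Wnt signalling, and Tudor-SN and AGO1 in small RNA pathways. A few neighbours were themselves genes of mitochondrial proteins: Mitofilin of the inner membrane at mRpL35, ATPsynD of the ATP synthase at mRpL55 and Taz of cardiolipin remodelling at mRpL18. Their conservative signals were 274, 128 and 166. No peak was shared by promoters of a pair of mitochondrial ribosomal protein genes.

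The distance between the TSSs went with the share bound. With the neighbouring TSS over 250 and up to 500 bp away 21 of 28 genes were bound (75.0%), and 55.3% of the other protein-coding genes at this distance. At over 100 and up to 250 bp the count was 4 of 6 (66.7%) against 41.7%, at 0 to 100 bp 9 of 20 (45.0%) against 36.2%, and over 500 bp 4 of 19 (21.1%) against 17.9%. In the replicates the shares at 0 to 100 bp were lower, 20.0% ± 13.2 for the mitochondrial ribosomal protein genes and 28.1% ± 4.74 for the other genes (SD, n = 3). These distance ranges were chosen after the data were seen. When the other protein-coding genes were weighted to the same distances, their bound share in the conservative list was 39.2%, against 52.1% for the mitochondrial ribosomal protein genes. In the replicates the difference became 7.63, 3.06 and 11.6 percentage points, a mean of 7.43 ± 4.28 where it had been 18.9 against protein-coding genes without weights and 22.3 against all other genes, with an exact sign-flip permutation p of 0.25.

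**Figure D4:**
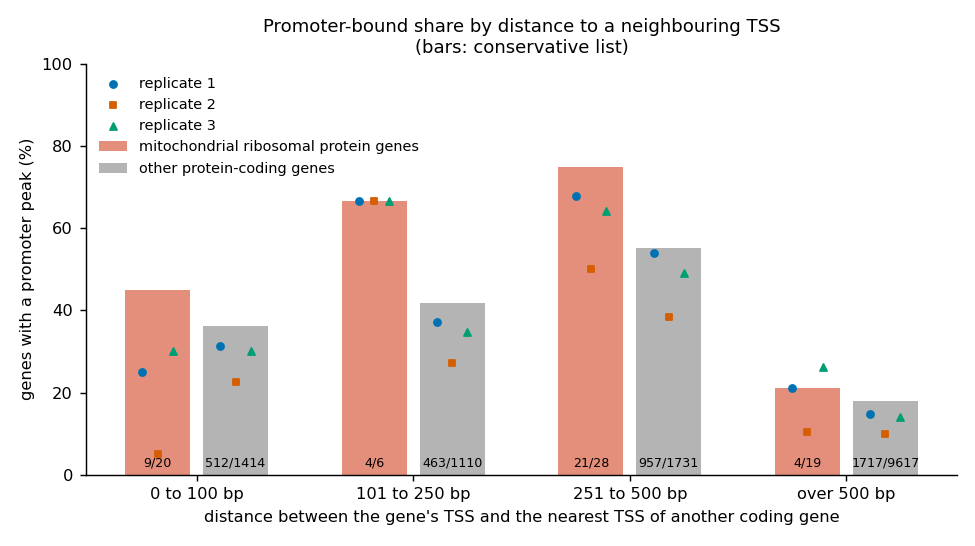
Bars give the percent of genes bound in the conservative list, by the distance from the gene's TSS to the nearest TSS of another protein-coding gene, and points give the 3 replicates' own lists. For the mitochondrial ribosomal protein genes the bar is highest over 250 and up to 500 bp, 75.0%, and lowest over 500 bp, 21.1%.

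Signal also differed with this distance. Among the 38 bound genes the median conservative signal was 202 for the 9 with a neighbouring TSS at 0 to 100 bp, 524 for the 4 at over 100 and up to 250 bp, 399 for the 21 at over 250 and up to 500 bp and 372 for the 4 without a neighbour in reach. All 4 ranges overlapped: mRpL23, with a neighbour at 24 bp, had a signal of 889.

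By chromosome, 9 of 12 genes on arm 2L were bound, 7 of 12 on 2R, 9 of 17 on 3L, 11 of 21 on 3R and 2 of 11 on X. The X share of 18.2% stood against 58.1% for the 62 autosomal genes. Among the other protein-coding genes 28.65% were bound on X and 25.9% on the autosomes. The bound X genes were mRpL22 and mRpL33, both among the 5 lowest signals, and in replicate 2 none of the 11 X genes was bound.

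Base composition was measured within 50 bp of each summit and 200 to 300 bp to either side, for the 43 conservative peaks at these promoters (5 genes had more than 1). G and C made up 32.0% ± 9.80 of the bases at the summits of these 43 peaks and 42.7% ± 6.54 in their flanks. At the 3560 other promoter peaks the values were 33.1% ± 9.90 and 41.9% ± 7.32 (SD over peaks, which are not replicates). The centre had less G and C than the flanks at 33 of the 43 peaks (76.7%) and at 74.1% of the others. Among the 12 strongest peaks the centre had 25.7% ± 4.10 G and C, and among the remaining 26 of the bound genes 34.7% ± 10.5. Across the 43 peaks, G and C content and signal had a Spearman rho of -0.466, and across the other promoter peaks -0.442. A low G and C content at strong summits was therefore common to promoter peaks of this list.

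**Figure D5:**
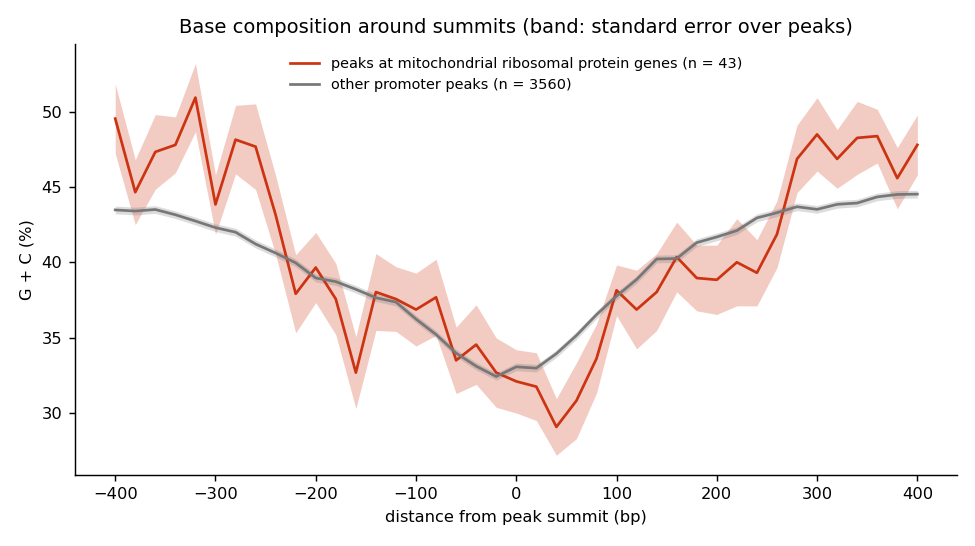
The percent of G and C is plotted against the distance from the summit in bp for the 43 peaks at mitochondrial ribosomal protein genes and the 3560 other promoter peaks, with the standard error over peaks as a band. Both curves dip around the summit, to a lowest value of 29.1% at 40 bp for the mitochondrial ribosomal protein genes and of 32.4% at -20 bp for the other promoters. Distances run along the plus strand of the genome, so their sign does not tell upstream from downstream of a gene.

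A set of 7 short words was searched on both strands, allowing overlaps between words, in the promoter window from 250 bp upstream to 50 bp downstream of the TSS. The word TATCGATA of the DNA replication-related element, known from promoters of growth genes in flies, was in 10 of the 38 bound promoters (26.3%), in 5 of the 35 unbound ones (14.3%) and in 9.37% of all protein-coding promoters. Among other bound protein-coding genes it was in 16.0%. Within 100 bp of the summits themselves it was in 2 of the 43 peaks (4.65%) and 6.94% of the other promoter peaks. The word GGTCACAC, the core of a motif of fly core promoters, was in 15.8% of the bound promoters, 5.71% of the unbound ones, 13.3% of the other bound protein-coding promoters and 7.71% of all. The AT-rich word ATATTTTA was in 15.8% of the bound promoters, 2.86% of the unbound ones, 13.6% of the other bound protein-coding promoters and 10.1% of all. It was also in 16.3% of the 43 summit windows against 11.2% of the other promoter peaks. CGATA, which lies inside TATCGATA, was in 52.6% of bound, 65.7% of unbound and 47.5% of all promoters. GAGAG was in 13.2%, 20.0% and 29.8%, CACGTG in 7.89%, 5.71% and 4.24%, and CAGCCTG in no bound or unbound promoter and in 2.00% of all. For the mitochondrial ribosomal protein genes each count rests on at most 38 promoters or 43 summit windows, and a match describes the sequence alone.

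Other genes of mitochondrial gene expression were counted from a list of factors that act in the same process. Of 44 such genes 12 were bound in the conservative list (27.3%), close to the 26.3% of other protein-coding genes; the difference to the ribosomal protein genes was not tested. The small subunit genes tko and bonsai, which lie outside the naming rule, were not bound. RNA processing and stability had 4 of 7 genes bound: SLIRP2 at 1002 and SLIRP1 at 616, whose mammalian counterpart protects mitochondrial messages, RNaseZ at 478 and rswl at 232. In transcription and replication 4 of 11 were bound: mtSSB, the single-stranded DNA binding protein, at 397, mTerf5 at 230.2, mtTFB1 at 193 and mTerf3 at 174. Translation factors had 2 of 9 bound, the elongation factor gene mEFTu1 at 233 and the initiation factor gene mIF2 at 200.5. Of 15 mitochondrial aminoacyl-tRNA synthetase genes, which charge the tRNAs, ArgRS-m at 194 and CysRS-m at 191 were bound. A further 5 listed symbols had no match in the annotation.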

How the data were processed

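ChIP-seq peak lists of 3 replicates of CG17361-eGFP embryos were used; sonicated fragments were 200 to 800 bp, per the labels. The authors deposited 14 peak lists in dm6 coordinates, made against a control, per the file headers and listings; no source used here names the aligner or the peak caller. As signal, the authors deposited a score per peak whose scale is not stated. The authors' IDR is deposited as a −log10 value in the ranked lists, and every line of the thresholded lists was at or under 0.01. The replicates compared in each series-level list were identified by intervals identical to a replicate's own ranked intervals.

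Lines with the same interval were counted as 1 peak with the strongest line's summit, on the 6 large chromosome arms. Genes and 23998 TSSs came from Ensembl release 115 without transposable elements, and sequence from RefSeq release 6, which has the same coordinates. Analyses used Python 3.11.15, pandas 2.3.3 and scipy 1.17.1. The pairing of summits with genes was tested on simulated data. Tests were exact two-sided sign-flip permutations over the replicates' values, adjusted by Benjamini-Hochberg over 4 tests. Wilson intervals cover counting error only. Genes named are the 12 with the strongest signal among those in all lists, those in the conservative list alone or in a replicate list alone, the 5 weakest, and the 3 on either side of the 500 bp limit; mRpS22, mRpL47, mRpL28 and the other genes given with a value were added after their values were seen. Members, gene lists and words were chosen with earlier results of these data known. Alternatives were the distance limit, the IDR threshold, the peak list, the lines counted and the genes compared with.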

Additional observations from a re-analysis of the deposited data

How the results depend on the processing

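The higher bound share of the mitochondrial ribosomal protein genes kept its direction under all 10 alternatives, from 7.43 to 25.8 percentage points; the lowest came from weighting other genes by neighbour distance, which was chosen after seeing the data. The count of 38 bound genes became 18 when a peak in the conservative list and every replicate list was required, fewer by construction. Lists whose IDR leaves out the ranks of replicate 1 or of replicate 3 gave 25 to 29; the conservative list itself leaves out those of replicate 2. All 3 replicates' alignments contributed to the peaks of each of these lists. The other alternatives gave 28 to 39. The signal percentile reversed to -1.83 (exact sign-flip permutation p = 1.0) at an IDR of 0.001 or less; the cause was not tested. The large minus small subunit difference ran from -15.3 to -4.12 (at a limit of 250 bp, exact sign-flip permutation p = 0.75) and the difference by shared promoter from 15.7 to 28.2. The sign-flip test cannot go below 0.25 with 3 replicates. Depth is unknown, so a missing peak is not evidence of absence.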

Other observations

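Peaks of a replicate that had no overlapping line in the conservative ranked list made up 215 of 5942 peaks (3.62%) in replicate 1, 218 of 3797 (5.74%) in replicate 2 and 157 of 5576 (2.82%) in replicate 3. At the promoters of mitochondrial ribosomal protein genes they were 2 of 41, 1 of 23 and 2 of 36. Among the unbound genes, mRpL28 had ranked lines in the conservative list (signal 123, IDR 0.0182), in replicate 1 (53.8) and in replicate 3 (54.1), which missed the threshold in each. Promoters of the bound mitochondrial ribosomal protein genes had 34.9% G and C, those of the unbound ones 37.1% and all protein-coding promoters 39.1%. Among the other protein-coding genes the bound promoters were likewise lower, at 37.2% against 39.8% for the unbound ones.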
